A study of Homo sapiens with 8 samples.

Results

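The DNAJ genes encode J proteins, the co-chaperones of HSP70. Members were taken as every gene whose symbol on the array starts with DNAJA, DNAJB or DNAJC followed by a digit, with at least 1 probe set annotated to that gene alone, and 47 of the 19775 genes on the array met this. Of the 47, 43 are co-chaperone genes and 4 are non-coding loci that carry a DNAJ symbol (DNAJB8-AS1, DNAJC27-AS1, DNAJC3-DT and DNAJC9-AS1), which were kept apart. The gene of interest, DNAJB2, was chosen by its large dexrazoxane difference on these same arrays, so that difference is described here and not tested.

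The 8 arrays carried RNA of HTETOP cells, a human line made from HT1080 fibrosarcoma cells in which TOP2A, the gene of topoisomerase II alpha, stands under tetracycline control. Treated cells had received 100 µM dexrazoxane for 24 h (3 arrays) or 1 µg/ml doxycycline for 24 h (1 array), and the vehicle cells of each treatment, carrying the same construct, gave 3 arrays for dexrazoxane and 1 for doxycycline. Dexrazoxane, a bisdioxopiperazine, is a catalytic inhibitor of topoisomerase II, and doxycycline is a tetracycline that shuts off TOP2A in this line. Every array held RNA pooled from 3 passages of the single line, numbered 15 to 17 in the doxycycline pair, and the labels do not say whether arrays of the same group came from separate cultures, so the spread behind the p-values may be a technical one.

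J proteins bind unfolded or misfolded clients, hand them to HSP70 and, through the J domain, stimulate the ATP hydrolysis by which HSP70 grips its client. Class A and class B members resemble bacterial DnaJ in their arrangement, whereas class C members share little beyond the J domain and work at fixed places, such as the endoplasmic reticulum, the mitochondrial import motor, clathrin-coated vesicles or the ribosome. DNAJB2, also called HSJ1, is best known from neurons, where its ubiquitin-interacting motifs tie clients held by HSP70 to the proteasome. It is made as a short cytosolic and nuclear form and a long form anchored in the endoplasmic reticulum membrane, which its only probe set (202500_at) cannot separate. Mutations in DNAJB2 cause an inherited motor neuropathy.

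DNAJB2 lies at chr2:219279366-219286895 (GRCh38.p14). Promoter windows from RefSeq on that build, from 250 bases before to 50 after a gene's start, were at hand for 35 of the 39 co-chaperone genes tested below (47 windows, since some genes had several). Searched on both strands, the heat shock element (GAA, TTC and GAA in a row with 2 free bases between neighbours), which heat shock factors bind, stood in 2 of the 47 windows and in 172 of all 35116 windows (0.49%). The shortened cyclic AMP response element TGACGT, which is contained in the full element TGACGTCA, stood in 8 of the 47 windows (17.0%, 7 genes) and in 7.98% of all windows. DNAJC27 counts more than once there, since its overlapping windows hold the same letters. The median share of G and C was 65% in the member windows and 58.7% in all windows, and its part in these counts was not tested. No member window held the endoplasmic reticulum stress element (CCAAT and CCACG with 9 free bases between them), found in 0.08% of all windows. The windows of DNAJB2 and DNAJC4, the co-chaperone genes with the highest dexrazoxane differences, are shown with those of DNAJA1 and DNAJB6, which hold the heat shock element. Capitals mark a match to the heat shock element or to TGACGT on either strand, all 4 genes lie on the plus strand, and a match is a description of these letters, not a site of binding. Counted from the gene's start, the match begins at base -114 in DNAJB2, -159 in DNAJC4 (on the reverse strand), -131 in DNAJB6 and 3 in DNAJA1. DNAJC4 has a second window, at chr11:64230298-64230597, which holds no match and is not shown. The windows lie at chr2:219279116-219279415 for DNAJB2, chr11:64230182-64230481 for DNAJC4, chr9:33025023-33025322 for DNAJA1 and chr7:157336754-157337053 for DNAJB6.
DNAJB2: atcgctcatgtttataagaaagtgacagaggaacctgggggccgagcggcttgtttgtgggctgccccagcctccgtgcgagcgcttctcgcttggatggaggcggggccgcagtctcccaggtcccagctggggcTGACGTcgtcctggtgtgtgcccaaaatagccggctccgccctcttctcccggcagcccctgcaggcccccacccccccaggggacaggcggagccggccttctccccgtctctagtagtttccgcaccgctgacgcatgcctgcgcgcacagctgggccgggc
DNAJC4: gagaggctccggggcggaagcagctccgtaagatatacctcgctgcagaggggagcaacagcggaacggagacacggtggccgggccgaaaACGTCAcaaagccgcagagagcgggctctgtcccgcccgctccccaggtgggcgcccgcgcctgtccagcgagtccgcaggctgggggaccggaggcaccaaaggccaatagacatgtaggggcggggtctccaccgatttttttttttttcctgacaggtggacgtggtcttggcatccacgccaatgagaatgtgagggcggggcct
DNAJA1: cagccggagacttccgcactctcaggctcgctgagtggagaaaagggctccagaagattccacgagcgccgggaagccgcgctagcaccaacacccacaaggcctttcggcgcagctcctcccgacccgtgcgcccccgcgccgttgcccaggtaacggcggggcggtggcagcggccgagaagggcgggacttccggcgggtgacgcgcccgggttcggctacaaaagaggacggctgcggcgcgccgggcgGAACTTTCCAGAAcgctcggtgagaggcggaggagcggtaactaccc
DNAJB6: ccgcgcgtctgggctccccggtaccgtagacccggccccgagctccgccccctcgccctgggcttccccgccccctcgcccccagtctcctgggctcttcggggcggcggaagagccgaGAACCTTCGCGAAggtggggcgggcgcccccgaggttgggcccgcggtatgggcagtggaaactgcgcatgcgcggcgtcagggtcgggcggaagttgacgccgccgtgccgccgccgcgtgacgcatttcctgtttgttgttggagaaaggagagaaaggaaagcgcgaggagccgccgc

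On the log2 scale, DNAJB2 stood at 8.35, 8.25 and 8.50 on the dexrazoxane arrays 1 to 3, against 7.53, 7.37 and 7.39 on the vehicle arrays 1 to 3. Every dexrazoxane array lay above every vehicle array. The means were 8.37 ± 0.127 with dexrazoxane and 7.43 ± 0.0866 with vehicle (SD, n = 3 each), a log2 difference of 0.93 ± 0.08 (SE, n = 3 pairs), or 1.91-fold, and the same-numbered pairs differed by 0.82, 0.87 and 1.11. Among the 14731 genes tested, this difference ranked 7 from the highest and 11 by size. The doxycycline array read 6.92 against 6.97 on its vehicle array, a difference of -0.05 with 1 array per group and therefore no error. A change in the share of cells that express a gene and a change in its RNA per cell cannot be told apart in these bulk samples.

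**Figure D1:**
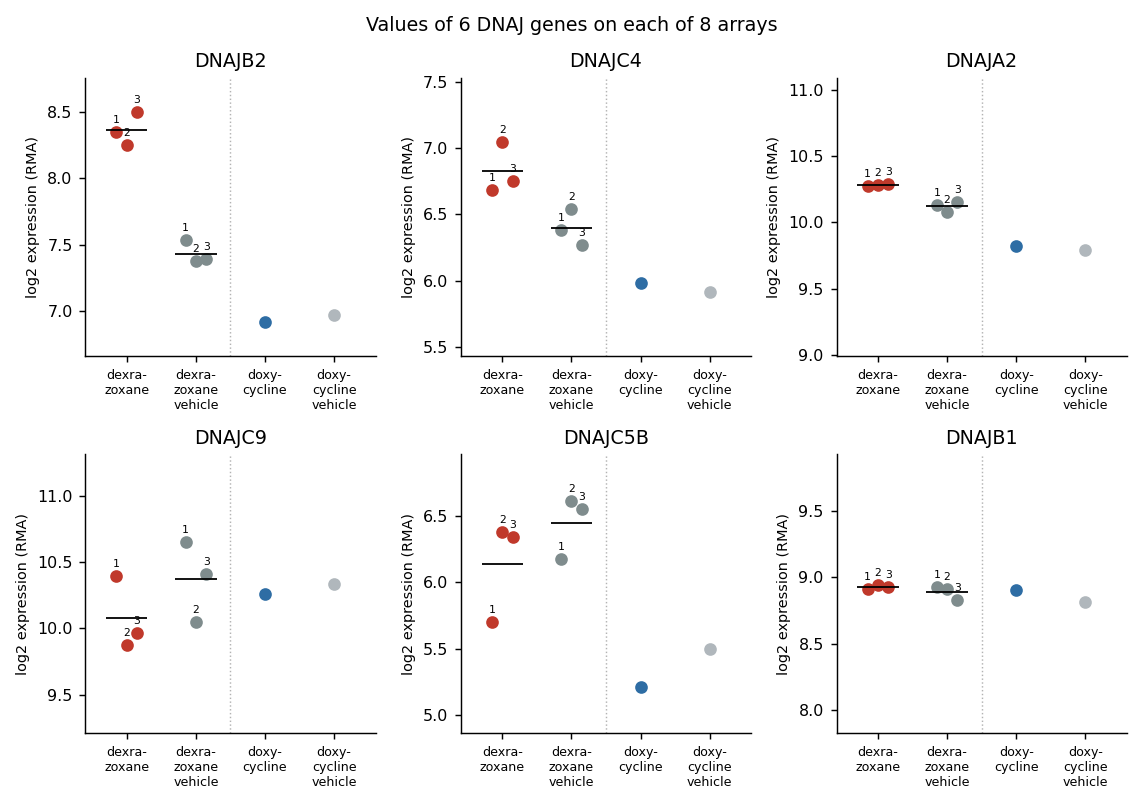
Log2 expression (RMA, vertical axis, with a range of its own in each panel) of 6 DNAJ genes on each of the 8 arrays. Each point is 1 array, small digits are the replicate numbers of the labels, horizontal bars are the means of 3 arrays, and the dotted line parts the treatments, whose levels were not compared; DNAJB2, DNAJC4 and DNAJA2 have all dexrazoxane points above the vehicle points, while DNAJB1 lies between 8.83 and 8.94 on all 6 arrays of that comparison.

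The deposited table holds log2 expression values made with RMA, and array medians ran from 5.49 to 5.57 over the dexrazoxane and vehicle arrays and were 4.81 and 4.82 in the doxycycline pair. Differences were therefore taken only within a treatment. Levels of different probe sets were set beside each other only to choose the brightest set, to filter genes and to grade and sum the markers. The choice and the filter used the mean of all 8 arrays. TOP2A, the targeted gene, read 6.02 on the doxycycline array against 11.98 on its vehicle array, and with dexrazoxane it differed by -1.57 (limma paired adjusted p = 0.0043, and 0.0949 without the block). All 10 mesenchymal markers were tested and 7 had a mean above 8, and of 6 epithelial markers 3 were tested and 2 had a mean above 8, KRT8 (9.93) and KRT18 (11.19), while EPCAM (3.01) and CDH1 (3.68) were below the filter. The neuronal markers, of interest because DNAJB2 is best known from neurons, had 5 of 7 tested and none with a mean above 8. Their summed level was 8.43 to 8.66 with dexrazoxane and 8.36 to 8.46 with vehicle, and MAP2 was the only one called (0.41, limma paired adjusted p = 0.0498). SYP was the only neuronal marker with a mean below vehicle, lower in every pair (-0.26, limma paired adjusted p = 0.087). RBFOX3, ELAVL4 and SNAP25 were each higher by 0.11 on average, though SNAP25 was lower in its first pair (-0.20). Below the filter and without a test, GAP43 was higher by 0.23 and STMN2 by 0.12. The summed epithelial level was 11.88 to 12.14 with dexrazoxane and 11.57 to 11.80 with vehicle. KRT8 was higher by 0.51 (limma paired adjusted p = 0.0334), KRT18 differed by 0.26 with groups that did not overlap (limma paired adjusted p = 0.119), and the part of either marker group in the DNAJ values was not tested.

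Each gene was represented by its brightest probe set, and 41 of the 47 members passed a filter on the mean of the 8 arrays (a log2 value of at least 4.83), 39 of them co-chaperone genes. DNAJB7, DNAJB8, DNAJC12 and DNAJC28 did not pass, nor did DNAJB8-AS1 and DNAJC27-AS1. The members nearest the bound were DNAJB13 (mean 5.38) and DNAJC3-DT (5.46) inside it, and DNAJB8 (4.77) and DNAJC27-AS1 (4.67) outside it. DNAJB3 and DNAJC25 have no probe set of their own, and 3 probe sets that members share with another gene (DNAJC25-GNG10 with DNAJC25, and TMEM135 with DNAJB6 in 2 sets) differed by -0.01, -0.17 and -0.12.

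Most of the other DNAJ genes read close to their vehicle level with dexrazoxane. Over the 38 tested co-chaperone genes other than DNAJB2, dexrazoxane differences ran from -0.31 to 0.43 with an SD of 0.131. Of these, 35 (92.1%) lay within 0.2 of 0. All genes tested, with their own extremes kept, had an SD of 0.178 and 78.8% within 0.2. With DNAJB2 included, the 39 co-chaperone genes had an SD of 0.198, wider than that of all genes, and 89.7% within 0.2. The median difference of the 41 tested members was 0.02, and it was 0.02 over all genes tested. Among the 40 tested members other than DNAJB2, groups did not overlap for 2 in the higher direction (DNAJC4 and DNAJA2) and 1 in the lower (DNAJC2). Of all genes tested, 6.53% did so in the higher direction and 3.62% in the lower, so these counts are near the background. DNAJB2 also had no overlap, but it was chosen by its difference on these arrays and is left out of the count.

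Dexrazoxane and vehicle were compared across all 14731 genes with limma, once without a block and once with the replicate number as a block (the paired fit), since same-numbered arrays deviated together. Without the block, limma called 0 genes higher and 0 lower (0% of all genes) at an adjusted p of 0.05, with 765 genes (5.19%) at an unadjusted p under 0.05, and 0 of the 40 tested members other than DNAJB2, with 1 at an unadjusted p under 0.05. The paired fit called 1 of the 40 higher, DNAJC4, and 0 lower, where it called 2.42% of all genes higher and 2.44% lower. With 40 members, a count of 1 is near that background.

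**Figure D2:**
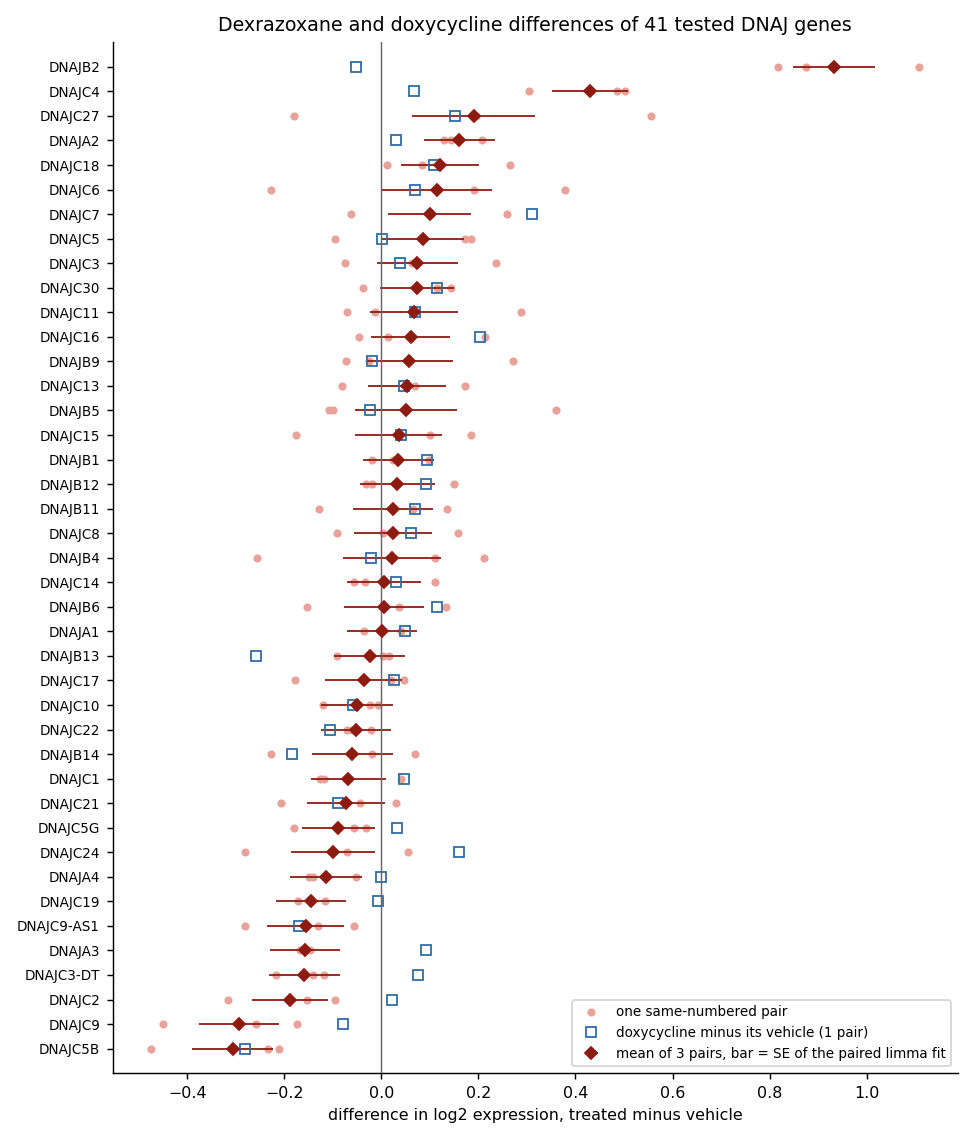
Differences in log2 expression (horizontal axis, treated minus vehicle) of the 41 tested DNAJ genes, ordered by the mean dexrazoxane difference. Pale points are the 3 same-numbered dexrazoxane pairs, diamonds their mean with the SE of the paired limma fit, and open squares the single doxycycline pair; DNAJB2 at 0.93 and DNAJC4 at 0.43 stand to the right of a column of genes between -0.31 and 0.19.

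Among the cytosolic and nuclear class A genes, DNAJA1, a general partner of cytosolic HSP70, read 11.95, 12.09 and 12.04 with dexrazoxane and 11.91, 12.10 and 12.07 with vehicle, a difference of 0.00. DNAJA2, its close relative, read 10.27, 10.28 and 10.29 with dexrazoxane and 10.13, 10.08 and 10.16 with vehicle. The DNAJA2 groups did not overlap, but the difference of 0.16 ± 0.07 (SE) did not pass the limma paired test (adjusted p = 0.241), and its other probe set differed by -0.06. DNAJA4, a heat-inducible member, differed by -0.11. None of the 3 was called.

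The other tested class B genes lay between -0.02 and 0.05 on their brightest probe sets, beside 0.93 for DNAJB2. Second sets of DNAJB5 and DNAJB13 gave 0.13 and 0.12. DNAJB1, the heat-inducible HSP40, read 8.91, 8.94 and 8.93 with dexrazoxane and 8.93, 8.91 and 8.83 with vehicle, a difference of 0.04. Its relatives DNAJB4 and DNAJB5 differed by 0.02 and 0.05, and their groups overlapped. DNAJB6, which keeps polyglutamine proteins from aggregating, differed by 0.01, and DNAJB13, a gene of cilia and sperm flagella, by -0.02. None of these 5 was called, and the testis genes DNAJB7 and DNAJB8 were below the filter.

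All 10 tested J proteins of the endoplasmic reticulum lay between -0.07 and 0.12 on their brightest probe sets, with a median of 0.03 and 0 called. Over all their probe sets, differences ran wider, from -0.24 to 0.08 in DNAJC3 and from -0.05 to 0.24 in DNAJC16. They ran from 0.06 to 0.21 in DNAJB9 and from -0.20 to -0.06 in DNAJB14. DNAJB9 (ERdj4), induced when unfolded protein builds up in that compartment, read 9.02, 9.11 and 9.68 with dexrazoxane and 8.75, 9.14 and 9.75 with vehicle. Its values followed the replicate number more than the treatment, and the mean difference was 0.06. DNAJC3 (p58IPK), a co-chaperone of the lumen, was likewise brightest in the third pair, at 9.58 with dexrazoxane and 9.65 with vehicle, and its pairs differed by 0.24, 0.06 and -0.07. DNAJB11 (ERdj3), which binds nascent chains beside BiP, differed by 0.02, and DNAJC10 (ERdj5), a disulfide reductase, by -0.05. DNAJC18, a membrane-anchored member, had the highest difference of the group at 0.12 (limma paired adjusted p = 0.422).

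Of the 6 tested genes placed in the mitochondrial group, DNAJC4 rose in the paired fit. DNAJC4, a small and little-studied member whose location is less sure than that of the others, read 6.68, 7.04 and 6.75 with dexrazoxane, against 6.38, 6.54 and 6.27 with vehicle. The groups did not overlap, and the pairs differed by 0.30, 0.50 and 0.49. The mean difference was 0.43 ± 0.08 (SE), with a limma paired adjusted p of 0.026 and an adjusted p of 0.941 without the block. The call rests on 1 of its 5 probe sets (206782_s_at). A second one gave 0.33 and the remaining 3 gave 0.07, 0.05 and -0.12, and the call was lost when all 5 were averaged (0.15, limma paired adjusted p = 0.210). It was also lost without replicate 1 (0.49, adjusted p = 0.070 in limma) and without replicate 3 (0.40, adjusted p = 0.079 in limma).

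The other mitochondrial members were not called. DNAJA3, also known as TID1, a class A protein of the matrix, differed by -0.16 (limma paired adjusted p = 0.245) and was lower in all 3 pairs, by 0.15 to 0.17 on the log2 scale. DNAJC19, part of the import motor at the inner membrane, read 9.14, 9.24 and 9.58 with dexrazoxane and 9.28, 9.36 and 9.75 with vehicle, a difference of -0.14. DNAJC15, its relative in import, differed by 0.04 on the brightest probe set and by -0.31 and -0.19 on the others. DNAJC28, below the filter and little studied, read 4.62, 4.49 and 4.44 with dexrazoxane and 4.10, 4.22 and 4.10 with vehicle, so its groups did not overlap at a dim signal, with a difference of 0.38 and no test.

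In the vesicle and endosome group, DNAJC5B, a relative of the cysteine string protein, had the lowest difference of all tested members. It read 5.70, 6.38 and 6.34 with dexrazoxane and 6.18, 6.62 and 6.55 with vehicle, with all 3 pairs below 0 but overlapping groups (-0.31 ± 0.08, SE, limma paired adjusted p = 0.077). Its second probe set differed by -0.03. DNAJC5, the cysteine string protein of secretory vesicles, differed by 0.09, and DNAJC13, an endosomal protein, by 0.05. DNAJC6 (auxilin), which strips clathrin from vesicles, read 8.65, 7.57 and 8.01 with dexrazoxane and 8.27, 7.80 and 7.82 with vehicle. Its mean difference of 0.11 turned to -0.02 when its 2 probe sets were averaged and to -0.17 without the first dexrazoxane array.

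The genes that act on chromatin, splicing and ribosomes had a median of -0.07 over 5 tested members. DNAJC9, a co-chaperone of histones H3 and H4, read 10.39, 9.87 and 9.96 with dexrazoxane and 10.65, 10.05 and 10.41 with vehicle. Each pair was lower, by 0.17 to 0.45 on the log2 scale, while the groups overlapped because the first pair was brighter than the others (-0.29 ± 0.08, SE, limma paired adjusted p = 0.083). A second DNAJC9 probe set also gave -0.29, and a dim one gave -0.01. DNAJC9 was called under 2 alternatives, with an adjusted p of 0.008 in limma with a trended and robust prior and of 0.049 in limma without replicate 2.

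DNAJC2, which sits on the ribosome at the exit of nascent chains and also acts on chromatin, read 9.29, 9.28 and 9.33 with dexrazoxane and 9.44, 9.38 and 9.65 with vehicle. Its groups did not overlap, and the difference of -0.19 had a limma paired adjusted p of 0.208. DNAJC8 and DNAJC17, spliceosome proteins, differed by 0.02 and -0.04. DNAJC21, which takes part in the maturation of the large ribosomal subunit, differed by -0.07 on its brightest probe set, but its 7 probe sets ran from -0.46 to 0.07. On the set at -0.46 (238335_at) the second dexrazoxane array read 5.23, against 7.48 and 7.99 on the other dexrazoxane arrays and 7.54, 7.39 and 7.16 with vehicle, so that value turns on 1 array. Another set (230893_at) differed by -0.45, with 6.25, 5.71 and 5.57 with dexrazoxane and 6.53, 6.19 and 6.17 with vehicle. Its groups overlapped, and its pairs all lay below 0, at -0.28, -0.48 and -0.59, so the sets of DNAJC21 disagree.

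None of the 4 tested members placed in no other group was called. DNAJC27, a gene for a small GTPase with a J domain, stood next after DNAJB2 and DNAJC4, at 0.19, but its pairs differed by 0.19, 0.56 and -0.18 and so had no common direction. DNAJC7 (TPR2), which passes clients between HSP70 and HSP90, differed by 0.10, DNAJC22 by -0.05 and DNAJC24, of the diphthamide pathway, by -0.10. Other probe sets had the opposite sign, at 0.21 (mean 6.70) and 0.27 (mean 4.61) for DNAJC22 and at 0.19 (mean 4.20) for DNAJC24. DNAJC12, a co-chaperone of the aromatic amino acid hydroxylases, was below the filter. The tested non-coding loci DNAJC3-DT and DNAJC9-AS1 both differed by -0.16 and were not called, and a second, dim probe set of DNAJC3-DT gave 0.13.

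**Figure D3:**
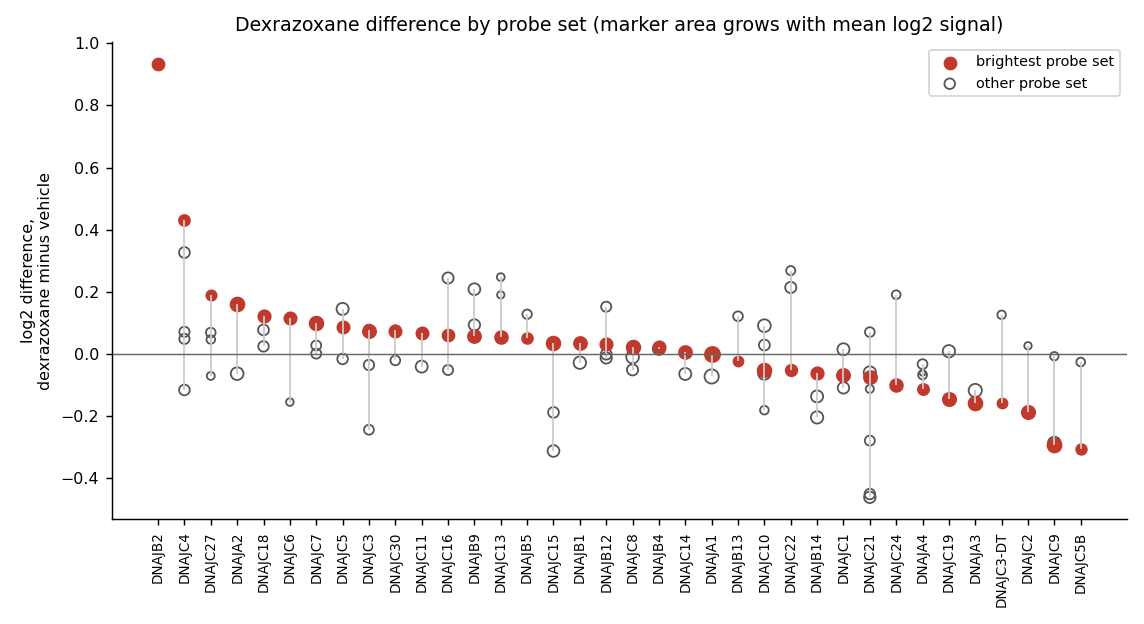
Dexrazoxane minus vehicle difference in log2 expression (vertical axis) for every probe set of the tested DNAJ genes that have more than 1, with DNAJB2 and its only probe set at the left. Filled points are the brightest probe set of the gene and open points the others, with marker area growing with mean signal; DNAJC4 and DNAJC21 spread the most, from -0.12 to 0.43 and from -0.46 to 0.07.

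The doxycycline pair, in which TOP2A was silenced, had 1 array per group, so no difference in it has a replicate check and no p-value was computed. No tested member changed by more than 1.5-fold in either direction, where 0.0272% of all genes tested were higher and 0.102% lower by that rule. The median difference of the members was 0.04, and it was 0.02 over all genes. In this pair 5261 probe sets (9.62%) held identical values on both arrays, DNAJA4 among them (a difference of 0).

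The 5 tested members with the largest doxycycline differences were spread over role groups. DNAJC7, the HSP70 to HSP90 adaptor, read 9.73 with doxycycline against 9.42 with vehicle (0.31), and its dexrazoxane difference was 0.10. DNAJC5B read 5.21 against 5.50 (-0.28), beside -0.31 with dexrazoxane, and DNAJB13 read 4.70 against 4.96 (-0.26). Both were dim probe sets. DNAJC16, a transmembrane member, differed by 0.20, and DNAJB14, which is anchored in the endoplasmic reticulum membrane, by -0.18. Other probe sets of these genes gave other doxycycline differences, of -0.11 and 0.09 for DNAJC7, 0.18 for DNAJC5B, -0.02 and -0.32 for DNAJC16, and 0.05 and -0.01 for DNAJB14. For DNAJB13 the other set kept the direction, at -0.47. A second, dim probe set of DNAJA4 (1554334_a_at) differed by -0.68 while its brightest read the same on both arrays.

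J proteins work only with partners, and 80 tested partner genes in 6 lists were read from the same fit. The limma fit without the block called 0 of the 80, with 3 at an unadjusted p under 0.05, and the paired fit called 1 higher and 1 lower, against the 2.42% and 2.44% of all genes given above. BAG2, a co-chaperone that blocks the ubiquitin ligase CHIP and exchanges nucleotide on HSP70, fell in the paired fit. It read 9.30, 9.61 and 9.40 with dexrazoxane and 9.81, 10.06 and 10.11 with vehicle, with no overlap (-0.55 ± 0.08, SE, limma paired adjusted p = 0.015). HSPB8, a small heat shock protein that acts with BAG3 in selective autophagy, rose in the paired fit by 0.52 ± 0.08 (SE, limma paired adjusted p = 0.015), though its groups overlapped, at 9.90, 10.48 and 10.34 with dexrazoxane and 9.26, 10.05 and 9.85 with vehicle. Both calls were lost in the smaller fit without replicate 1, where the limma paired adjusted p was 0.064 for BAG2 and 0.081 for HSPB8. The differences themselves changed little with a pair left out, from -0.61 to -0.48 for BAG2 and from 0.46 to 0.57 for HSPB8. BAG2 was read from 1 of 3 probe sets and HSPB8 from 1 of 2. With the mean of the probe sets, and again with specific probe sets only, the paired fit called 1 partner gene.

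The remaining partners were not called. Among 12 genes of the HSP70 list (median 0.04), HSPA13 differed by -0.39 (limma paired adjusted p = 0.158), and its second dexrazoxane array, at 8.96, lay apart from 9.51 and 9.54 on the others. HSPA4L, an HSP110-type exchange factor, differed by 0.28, and its relative HSPH1 by -0.23. Among 13 regulators and exchange factors (median 0.08), BAG1, which links HSP70 to the proteasome, read 8.78, 8.77 and 8.64 with dexrazoxane and 8.54, 8.31 and 8.38 with vehicle. Its groups did not overlap, and its difference of 0.32 had a limma paired adjusted p of 0.060.

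The 19 HSP90, chaperonin and small heat shock genes, HSPB8 at 0.52 among them, had a median of 0.01, and HSP90AA1, the inducible cytosolic HSP90, differed by -0.16. The 16 genes of the unfolded protein response had a median of -0.10, with 12 below 0 and 0 called, and their lowest p-values belonged to the transcription factors ATF6 (-0.24, limma paired adjusted p = 0.124) and ATF4 (-0.22). The 17 genes of ubiquitin and proteasome clearance, the pathway to which DNAJB2 delivers clients, lay between -0.17 and 0.22 with 0 called, and the highest was SQSTM1 (p62), an autophagy receptor. Of 3 J-domain genes with other symbols, GAK, the ubiquitous relative of auxilin, differed by 0.30 (limma paired adjusted p = 0.092).

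**Figure D4:**
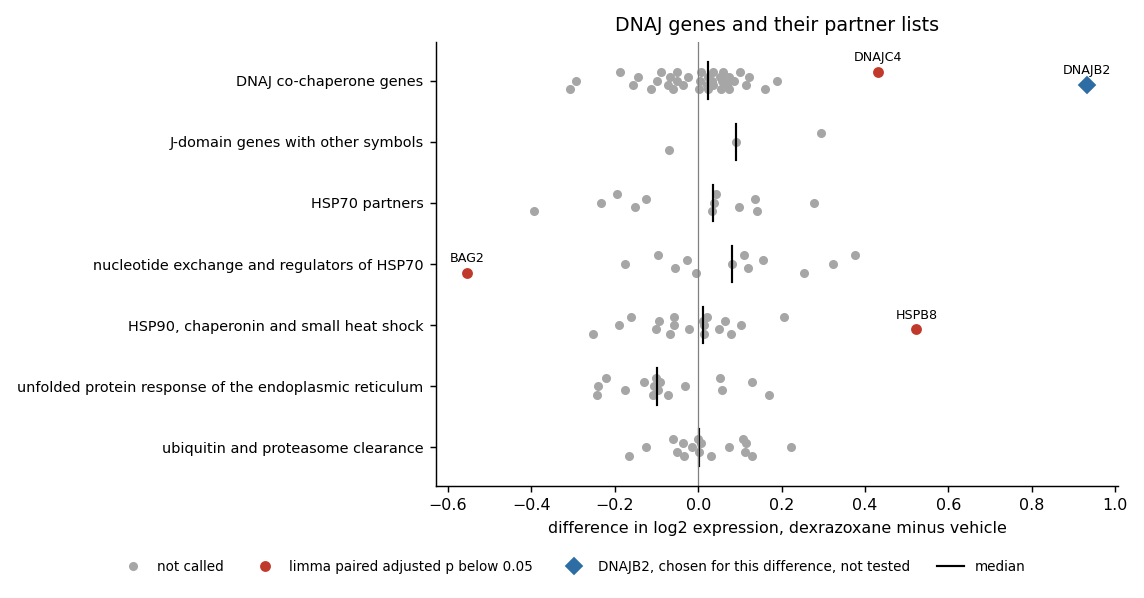
Dexrazoxane minus vehicle differences in log2 expression (horizontal axis) of the 39 tested DNAJ co-chaperone genes and of 6 lists of partner genes (rows). Each point is 1 gene, vertical lines are the medians, red points passed the limma paired test at 0.05 and the blue diamond is DNAJB2; BAG2 at -0.55, HSPB8 at 0.52 and DNAJC4 at 0.43 are the red points.

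The genes beside DNAJB2 on chromosome 2 were read to show its values in their place. On the side of lower coordinates, GLB1L, STK16, TUBA4A and TUBA4B differed by 0.07, 0.04, 0.13 and 0.09 with dexrazoxane, all with overlapping groups. On the other side PTPRN, a phosphatase-like protein of dense-core vesicles whose end lies 2728 bases from DNAJB2, averaged 6.90 ± 0.217 with dexrazoxane and 6.61 ± 0.0456 with vehicle (SD, n = 3 each). Its groups did not overlap and its pairs differed by 0.05, 0.57 and 0.27, but the mean difference of 0.30 did not pass the test (limma paired adjusted p = 0.140). DNPEP, an aminopeptidase gene, differed by -0.02, and MIR153-1, inside PTPRN, and RESP18, between PTPRN and DNPEP, have no probe set of their own here. None of the 6 measured neighbours was called.

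**Figure D5:**
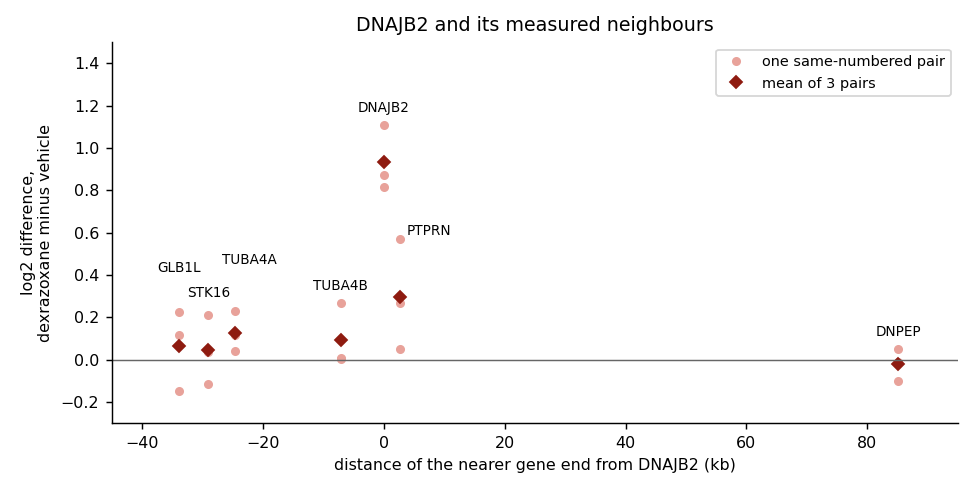
Dexrazoxane minus vehicle differences in log2 expression (vertical axis) of DNAJB2 and its 6 measured neighbours against the distance of the nearer gene end from DNAJB2 in kilobases (horizontal axis). Pale points are same-numbered pairs and diamonds their means; DNAJB2 stands at 0.93 and PTPRN at 0.30, and the other 5 lie between -0.02 and 0.13.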

How the data were processed

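The table the authors deposited gives 1 log2 value for each probe set on each array. Per the submitters' processing notes the method was RMA, which corrects background, evens out the intensity distributions of arrays and summarises the probes of a set, which narrows differences in total RNA. Whether it ran over all arrays at once was not given in the sources. Gene names come from the platform annotation, with symbols updated through Entrez identifiers (RefSeq, GRCh38.p14), and of 54675 sets the 41097 with 1 symbol were used. The brightest set by its mean over 8 arrays stood for a gene, and 14731 genes reached the 40th percentile of all sets. The dexrazoxane comparison used lmFit and eBayes of limma 3.58.1 under R 4.3.3, with two-sided tests, Benjamini-Hochberg adjustment over all genes tested and a bound of 0.05. The planned fit had no block. Deviations of same-numbered arrays from their group means correlated at 0.823, 0.574 and 0.716, and those of different numbers at -0.629 to 0.181, so a fit with the replicate number as a block was added. That pairing rests on this check and on the shared numbers in the labels. Deviations from a group mean cancel out within the group, so part of the contrast between same and different numbers is fixed by the centring. Standard errors printed are those of the paired fit.

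The members and the gene lists were chosen with earlier results of these data known. Named were DNAJB2, members called in any fit, the 5 highest and 5 lowest dexrazoxane differences, the 5 largest doxycycline differences, members at the filter, up to 2 members per role group and up to 3 genes per partner list with the smallest p without the block, the 4 nearest genes on each side of DNAJB2, and TOP2A. Further members were named to account for each role group, after their values were seen. Simulated arrays for dexrazoxane against vehicle (14731 genes) were given the pair effect of the real arrays and the residual spread of the paired fit. In them a log2 change of 0.5 was found in 37.0% of the changed genes by the paired fit and in 0.299% without the block. A log2 change of 1 was found in 80.3% by the paired fit and in 57.3% without the block. Since the pair effect was put in, the simulation cannot show which fit suits the real arrays better. The number of arrays limits the precision. Alternatives were another filter, the mean of the probe sets or specific sets only, arrays centred on their medians, another variance prior and each array left out.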

Additional observations from a re-analysis of the deposited data

Results flagged for a closer look

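For 5 tested members every same-numbered dexrazoxane pair lay on one side of 0 and the single doxycycline pair on the other. The difference between the treatments was not tested, because doxycycline had 1 array per group. All 3 dexrazoxane pairs were higher in 4 and lower in 11 of the 41 tested members, and in 3788 and 2863 of all 14731 genes. How many of all genes had an opposite doxycycline sign was not counted, so the 5 are listed without a background and are no result about the members. DNAJB2 differed by 0.93 with dexrazoxane (pairs from 0.82 to 1.11) and by -0.05 with doxycycline. DNAJC2 differed by -0.19 with dexrazoxane and by 0.02 with doxycycline, and DNAJA3 by -0.16 with dexrazoxane and by 0.09 with doxycycline. The non-coding locus DNAJC3-DT differed by -0.16 with dexrazoxane and by 0.08 with doxycycline, but its second, dim probe set by 0.13 and 0. DNAJC5G, a testis relative of the cysteine string protein, differed by -0.089 with dexrazoxane and by 0.03 with doxycycline. On the brightest probe sets, all 5 doxycycline values lay within 0.1 of 0. The non-coding locus DNAJB8-AS1, below the filter, had the same pattern, at 0.19 with dexrazoxane and -0.18 with doxycycline.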

How the results depend on the processing

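The difference of DNAJB2 with dexrazoxane stayed between 0.85 and 0.99 when arrays or pairs were left out, and the median of the tested members between -0.02 and 0.04. With doxycycline, 0 members passed 1.5-fold under every filter, probe set rule and scaling tried. The count of calls followed the pairing. Over all genes tested, the limma fit without the block called 0 higher and 0 lower, and the fit with the replicate number as a block called 357 higher and 360 lower. Among members other than DNAJB2 the block moved the count of calls to 1, against 0 without it, and among partner genes to 2, against 0. Without the block, genes called lower came to 1 with specific probe sets, to 1 with a trended and robust prior and to 0 to 1 with an array left out.

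The alternatives that keep the block were added after the data had been seen. Genes called higher came to 195 without a filter, 553 with a filter at the 60th percentile, 186 with specific probe sets, 992 with a trended and robust prior, and 42 to 416 with a pair left out (211 without replicate 3). Genes called lower came to 230 without a filter, 232 with specific probe sets, 852 with a trended and robust prior, and 56 to 414 with a pair left out (200 without replicate 3). Members called other than DNAJB2 came to 2 at the 60th percentile (DNAJC5B was added), 0 with the mean of the probe sets, 0 with specific probe sets, 2 with a trended and robust prior (DNAJC9 was added), and 0 to 2 with a pair left out. Partner genes called came to 4 at the 60th percentile, 1 with the mean of the probe sets, 1 with specific probe sets, 14 with a trended and robust prior, and 0 to 4 with a pair left out.

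Among single genes, DNAJC4 changed sign to -0.12 in both fits when only specific probe sets were used, which replace its probe set by another. DNAJC6 changed sign to -0.020 in both fits with the mean of its probe sets, and it ran from -0.17 to 0.37 without the block and from -0.018 to 0.29 with it when arrays or pairs were left out. The cause of the other changes was not tested. Alternative values were counted for the 5 highest and 5 lowest tested members other than DNAJB2, and for BAG1, BAG2, HSPB8 and PTPRN. In the paired fit, call and direction were kept in 103 of these values. A call was gained in 5 and lost in 7, and the sign changed in 3. Without the block 157 were kept and 3 changed sign. TOP2A, the cell type markers and the other partner genes were not part of this count.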
